A study of Mus musculus with 16 samples.

Results

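Ddias, Mybl1, Prrg4, Adamts6, Arap2, Kank3, Gne, Rap2a, Dcxr and Dglucy are 10 lesser-known genes of the radiation response. They were chosen because their transcripts stood higher after irradiation in both genotypes and both cell types of this series, so their radiation changes are given as a description and were not tested. The array table held 19937 genes on rows with a single symbol, and each of the 10 had 1 such row. RNA came from bone marrow cells of C57BL/6J mice, either Parp-2-/-, which lack an enzyme that binds broken DNA, or wild type (WT). Lineage-negative Sca1+ c-Kit+ cells (LSK), which hold the stem cells and earliest progenitors, and lineage-negative Sca1- c-Kit+ myeloid progenitors (MP) were compared 2.5 hours after 5 Gy of gamma radiation and without irradiation. The groups, in each of LSK and MP cells, were irradiated Parp-2-/-, irradiated WT, unirradiated Parp-2-/- and unirradiated WT. Each of the 8 groups had 2 arrays (16 in all), and each array carried a pool of at least 3 mice. Whether the mice or the isolated cells were irradiated, whether LSK and MP pools came from the same mice, how the Parp-2-/- allele was made, and the age and sex of the mice are not stated in the labels. If pools shared mice, p-values between LSK and MP cells do not take it into account. The labels do not say that the pools of a group came from separate mice, so p-values measure the spread between these pools.

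Ionising radiation breaks DNA, and the damage kinases that sense the breaks stabilise the transcription factor p53. p53 switches on genes of cell cycle arrest, repair and apoptosis within hours, a response for which haematopoietic progenitors are well known. The varied products of the 10 genes include a nuclear survival factor, a Myb-family transcription factor, a membrane protein and a secreted protease. The 10 genes also encode a small GTPase, proteins that act on small GTPases or the cytoskeleton, and enzymes of sugar and amino acid metabolism. They lie on 10 different chromosomes, from chromosome 1 (Mybl1) to chromosome 17 (Kank3) in assembly GRCm38.p6.

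The targeted gene and the marker genes were read first, to check the labels. Parp2 read 5.70 to 6.77 log2 units in Parp-2-/- LSK pools and 7.40 to 7.96 in WT LSK pools, and 6.74 to 7.11 in Parp-2-/- MP pools and 7.98 to 8.40 in WT MP pools. Averaged over the 4 settings the Parp2 difference was -1.43 ± 0.13 (limma, adjusted p = 0.000936, lower in 8 of 8 Parp-2-/- pools). The labels do not say whether this row reads outside the deleted part of the gene. The mean level of 5 measured stem cell markers was 7.29 to 7.57 in irradiated and 7.67 to 7.88 in unirradiated LSK pools, and 5.68 to 5.97 in irradiated and 5.71 to 6.24 in unirradiated MP pools. That of 6 myeloid progenitor markers was 6.84 to 7.24 in irradiated and 6.59 to 6.86 in unirradiated LSK pools, and 8.91 to 8.94 in irradiated and 9.04 to 9.35 in unirradiated MP pools. Both lists separated the populations, and the stem cell markers in LSK and the progenitor markers in MP pools were lower in every irradiated pool. Ly6a, which encodes Sca1, had no row with 1 symbol. The mean level of the B lymphocyte (3 of 4 measured), T and NK cell (4), mature neutrophil (5) and macrophage (4) markers lay between 3.70 and 5.15, with array medians of 4.74 to 4.92. Single genes of these lists read higher, namely Nkg7 (6.81 to 9.35), Cd68 (6.34 to 7.23), S100a8 (3.76 to 7.97) and Cd79b (4.48 to 7.12). Mean levels of the B lymphocyte markers were at most 3.99 in irradiated against at least 4.15 in unirradiated LSK pools. The part of these markers in the results was not tested.

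**Figure D1:**
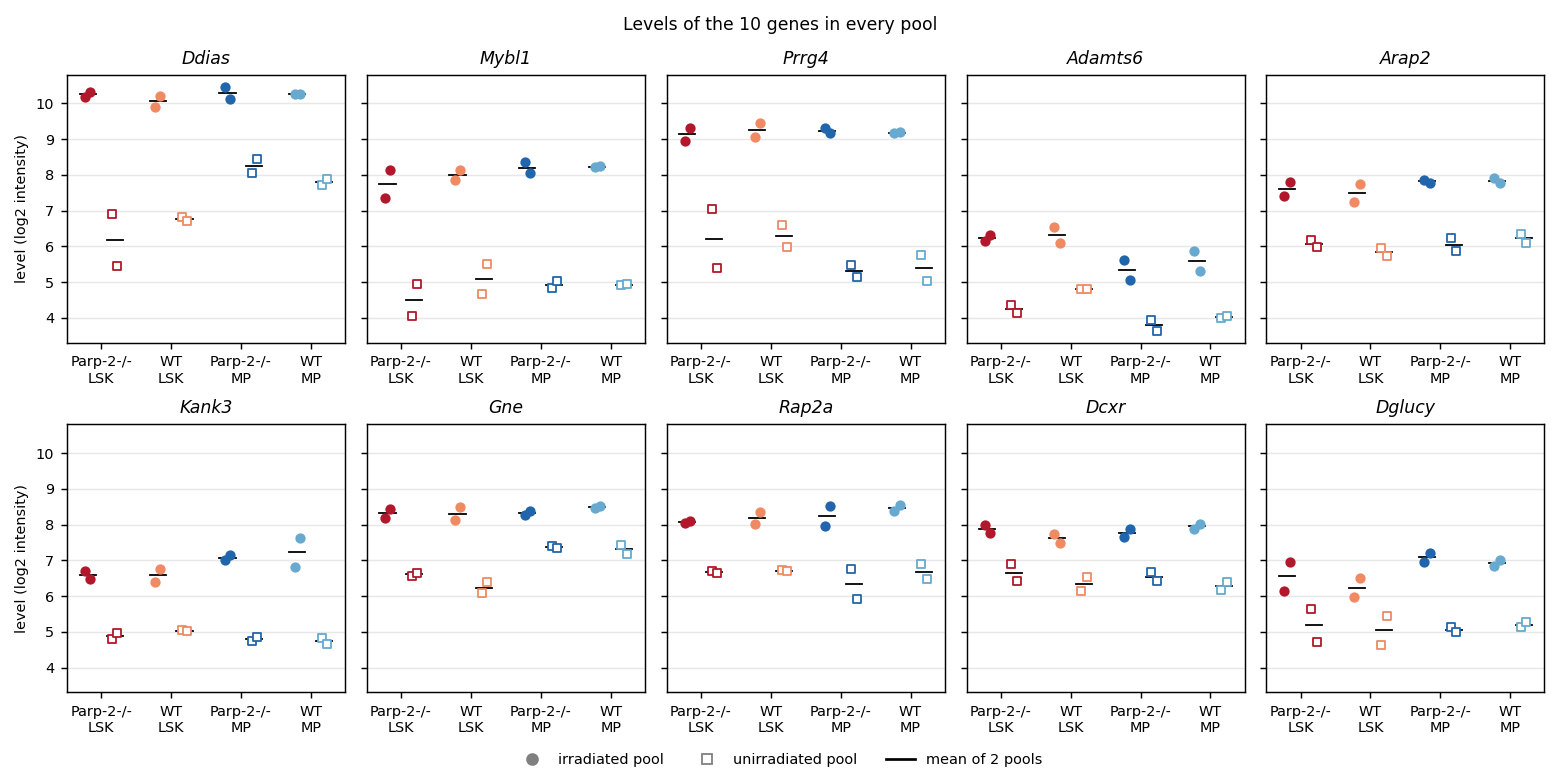
Level of each gene (log2 intensity, vertical axis) in every pool, by genotype and cell type, with irradiated pools as filled circles, unirradiated pools as open squares and the mean of 2 pools as a line. For each gene all 8 irradiated pools lie above all 8 unirradiated pools, with the narrowest gap, 0.26, for Adamts6.

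Every one of the 10 genes read higher on all 8 irradiated arrays than on any of the 8 unirradiated arrays, a pattern held by 0.906% of the 22961 tested rows. In 9 of the 10 the change exceeded 1 log2 unit in Parp-2-/- and WT cells of both populations, as it did in 0.34% of rows. The exception was Gne, whose smallest change was 0.94. Since the genes were chosen on this contrast, nothing is read from these shares. In sorted pools, fewer cells of a type and less RNA per cell cannot be told apart. Changes below are irradiated minus unirradiated, in log2 units ± the standard error of the fit over all 16 arrays, n = 2 pools a group.

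Prrg4 encodes a single-pass membrane protein with a vitamin K-dependent Gla domain and a proline-rich tail. Its level was 8.95 and 9.33 in irradiated Parp-2-/- LSK pools, against 7.03 and 5.38 in unirradiated ones. WT LSK pools read 9.05 and 9.46 after irradiation and 6.59 and 5.97 without it. The irradiated pools were close together, while the unirradiated Parp-2-/- LSK pools were 1.65 apart, the widest gap between paired pools for any of the 10 genes. In MP cells Prrg4 read 9.30 and 9.16 (Parp-2-/- irradiated) against 5.48 and 5.15 (Parp-2-/- unirradiated), and 9.16 and 9.21 (WT irradiated) against 5.77 and 5.02 (WT unirradiated). Its changes were 2.93 in Parp-2-/- LSK, 2.97 in WT LSK, 3.92 in Parp-2-/- MP and 3.79 in WT MP cells, each ± 0.43. Without unirradiated pool 1 or pool 2 the change in Parp-2-/- LSK cells was 3.76 or 2.11. The mean of 3.40 is a 10.6-fold difference, the largest of the 10 genes.

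Mybl1 encodes A-Myb, a transcription factor of the Myb family known in mice for meiosis in male germ cells. It read 7.34 and 8.15 in irradiated Parp-2-/- LSK pools against 4.04 and 4.95 in unirradiated ones. In WT LSK pools the levels were 7.86 and 8.14 after irradiation and 4.68 and 5.51 without it. The irradiated pools all lay above the unirradiated ones, and 2 of the 8 unirradiated levels were below the median of their array. MP pools gave 8.35 and 8.06 (irradiated) against 4.83 and 5.02 (unirradiated) in Parp-2-/- mice, and 8.21 and 8.26 (irradiated) against 4.91 and 4.94 (unirradiated) in WT mice. The 4 changes of Mybl1 (3.25, 2.91, 3.28 and 3.31, each ± 0.33, in the order Parp-2-/- LSK, WT LSK, Parp-2-/- MP, WT MP) spanned 0.40, little more than a standard error. Its mean change was 9.11-fold.

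Ddias, known as noxin, encodes a nuclear protein described as a suppressor of apoptosis after DNA damage. Irradiated Parp-2-/- LSK pools read 10.19 and 10.31, and unirradiated ones 6.90 and 5.46. For WT LSK cells the levels were 9.91 and 10.20 after irradiation and 6.83 and 6.70 without it. Unirradiated MP pools read higher than unirradiated LSK pools: 10.47 and 10.11 (irradiated) stood against 8.05 and 8.44 (unirradiated) in Parp-2-/- mice, and 10.27 and 10.27 (irradiated) against 7.73 and 7.88 (unirradiated) in WT mice. The irradiated group means of all 4 combinations lay within 0.23 log2 units of each other, whereas the unirradiated means spanned 2.07. The change was largest in Parp-2-/- LSK cells (4.07 ± 0.34, or 16.8-fold), followed by WT LSK (3.29), WT MP (2.47) and Parp-2-/- MP cells (2.04, or 4.12-fold). In Parp-2-/- LSK cells it was 4.79 without unirradiated pool 1 and 3.35 without unirradiated pool 2.

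Adamts6 encodes a secreted zinc metalloprotease with thrombospondin motifs. Its levels were 6.14 and 6.30 in irradiated against 4.36 and 4.13 in unirradiated Parp-2-/- LSK pools, and 6.55 and 6.09 (irradiated) against 4.81 and 4.81 (unirradiated) in WT LSK pools. In MP cells they were 5.62 and 5.07 (irradiated) against 3.93 and 3.64 (unirradiated) in Parp-2-/- mice, and 5.88 and 5.32 (irradiated) against 3.99 and 4.05 (unirradiated) in WT mice. All 8 unirradiated readings were below their array's median and are not shown to be above background. The changes were 1.98, 1.51, 1.56 and 1.58 (each ± 0.23, in Parp-2-/- LSK, WT LSK, Parp-2-/- MP and WT MP cells). They may be lower bounds, which was not tested.

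Arap2, Kank3 and Rap2a encode a small GTPase or proteins that act on small GTPases or the cytoskeleton. Arap2 encodes a GTPase-activating protein for Arf6. It read 7.24 to 7.90 over the 8 irradiated arrays and 5.73 to 6.36 over the 8 unirradiated ones. Its 4 changes lay between 1.53 (Parp-2-/- LSK) and 1.77 (Parp-2-/- MP), each ± 0.21, the narrowest span of the 10 genes at 0.24. Rap2a encodes a Ras-related GTPase that works through the kinases Tnik, Mink1 and Map4k4. Its level was 7.95 to 8.54 in irradiated and 5.91 to 6.90 in unirradiated pools, and its changes were 1.39 in Parp-2-/- LSK, 1.47 in WT LSK, 1.91 in Parp-2-/- MP and 1.77 in WT MP cells (each ± 0.26).

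Kank3 belongs to the KN-motif and ankyrin-repeat proteins, a family tied to the actin cytoskeleton. LSK pools gave 6.69 and 6.48 (irradiated) against 4.79 and 4.96 (unirradiated) in Parp-2-/- mice, and 6.39 and 6.77 (irradiated) against 5.04 and 5.02 (unirradiated) in WT mice. MP pools gave 7.00 and 7.14 (irradiated) against 4.75 and 4.85 (unirradiated) in Parp-2-/- mice, and 6.82 and 7.62 (irradiated) against 4.82 and 4.65 (unirradiated) in WT mice. Here the unirradiated group means were alike (within 0.30) and the irradiated group means spread by 0.64, the reverse of Ddias. The unirradiated readings lay close to the array medians, 2 of 8 below them. The changes were 1.71 and 1.55 in Parp-2-/- and WT LSK cells and 2.27 and 2.49 in Parp-2-/- and WT MP cells, each ± 0.23.

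Gne, Dcxr and Dglucy encode enzymes. Gne makes N-acetylmannosamine from UDP-N-acetylglucosamine and phosphorylates it, the entry into sialic acid synthesis. In LSK cells it read 8.19 and 8.44 (irradiated) against 6.57 and 6.64 (unirradiated) in Parp-2-/- mice, and 8.14 and 8.48 (irradiated) against 6.10 and 6.38 (unirradiated) in WT mice. In MP cells the unirradiated levels were higher: 8.26 and 8.39 (irradiated) stood against 7.41 and 7.36 (unirradiated) in Parp-2-/- mice, and 8.48 and 8.51 (irradiated) against 7.42 and 7.19 (unirradiated) in WT mice. As for Ddias, the irradiated group means lay within 0.19 of each other and the unirradiated means spanned 1.14. The changes of Gne were 1.71 in Parp-2-/- LSK, 2.07 in WT LSK, 0.94 in Parp-2-/- MP and 1.19 in WT MP cells (each ± 0.17), from 1.92-fold to 4.20-fold.

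Dcxr, which encodes dicarbonyl and L-xylulose reductase, had the smallest mean change of the 10, 1.35 or 2.54-fold. It read 7.48 to 8.01 on irradiated and 6.15 to 6.90 on unirradiated arrays, with changes of 1.23, 1.27, 1.22 and 1.67 (each ± 0.21; Parp-2-/- LSK, WT LSK, Parp-2-/- MP and WT MP). Dglucy encodes the mitochondrial D-glutamate cyclase. Its LSK pools read 6.14 and 6.96 (irradiated) against 5.64 and 4.72 (unirradiated) in Parp-2-/- mice, and 5.96 and 6.49 (irradiated) against 4.63 and 5.45 (unirradiated) in WT mice, so that the pools of a group were up to 0.92 apart. In MP cells the levels were 6.96 and 7.22 (irradiated) against 5.13 and 4.98 (unirradiated) in Parp-2-/- mice, and 6.84 and 7.00 (irradiated) against 5.13 and 5.27 (unirradiated) in WT mice. The changes were 1.37 in Parp-2-/- LSK, 1.19 in WT LSK, 2.03 in Parp-2-/- MP and 1.72 in WT MP cells, each ± 0.35. Of the 8 unirradiated readings 2, both in LSK pools, were below the array median. The change in WT LSK cells was 0.77 without unirradiated pool 1 and 1.60 without pool 2, and that in Parp-2-/- LSK cells 1.83 and 0.91 without them.

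**Figure D2:**
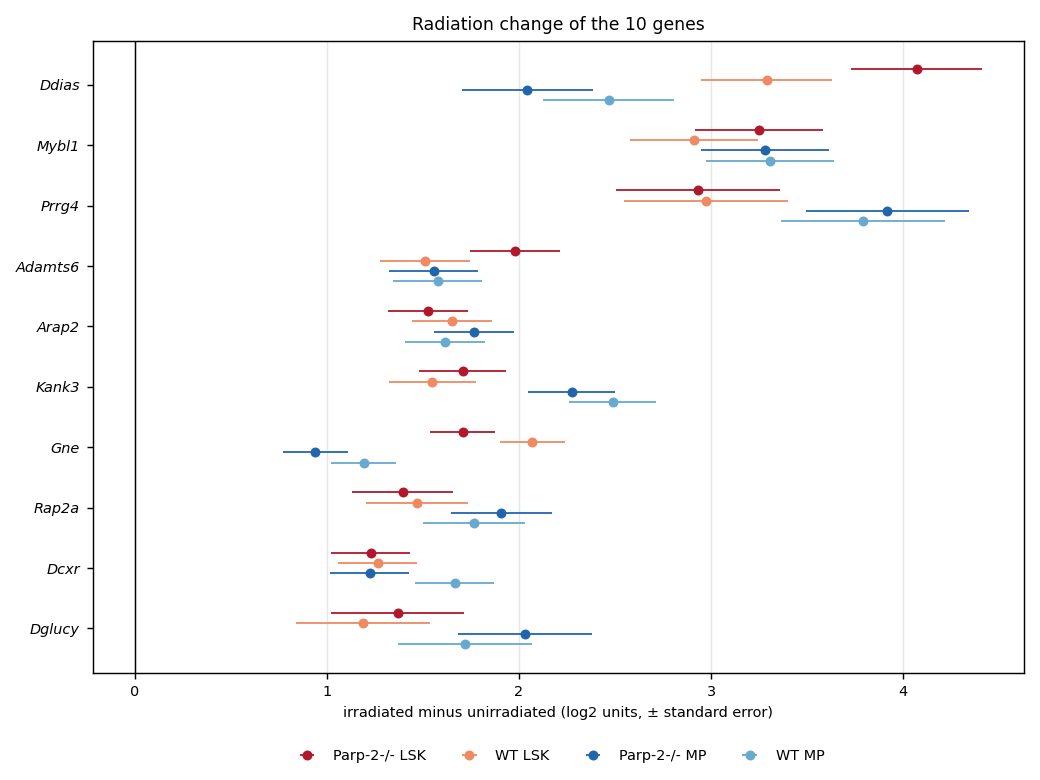
Radiation change of each gene (irradiated minus unirradiated, log2 units; points are differences of 2-pool means, bars ± 1 standard error) in Parp-2-/- LSK, WT LSK, Parp-2-/- MP and WT MP cells. In LSK cells Prrg4, Mybl1 and Ddias have the largest changes (2.91 to 4.07), and in MP cells Prrg4 and Mybl1 do (3.28 to 3.92), followed by Kank3 and Ddias (2.04 to 2.49); the values for Ddias and Gne are higher in LSK cells and those for Kank3 higher in MP cells.

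The order of the genes was partly kept across the 4 combinations. Prrg4, Mybl1 and Ddias held ranks 1 to 3 in LSK cells of both genotypes. In MP cells of both genotypes Prrg4 ranked 1, Mybl1 2, Kank3 3 and Ddias 4. Gne differed most in rank, with rank 6 in Parp-2-/- LSK and 4 in WT LSK cells and rank 10 in MP cells of both genotypes. Dcxr, Gne, Dglucy, Rap2a, Arap2 and Adamts6 had mean changes from 1.35 to 1.66, and neighbours in that order were closer than the standard error of a single change. Across the 16 arrays each gene followed the mean of the other 9, with Pearson r from 0.84 (Adamts6) to 0.98 (Arap2). These correlations describe a shared split by irradiation and are no test.

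The genes with profiles most like the mean of the 10 over 16 arrays were Tnfsf4 (r = 0.99), which encodes OX40 ligand, Mdm2 (0.99), the p53-degrading ubiquitin ligase, the death receptor gene Fas (0.98), Phlda3 (0.98), an Akt inhibitor, and the interferon-stimulated Mx1 (0.98). Their mean changes were 4.24, 2.07, 3.49, 2.74 and 2.08 log2 units.

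Levels between the sorted populations were not used to choose the genes. Before irradiation, 2 of the 10 genes differed between LSK and MP cells. Gne was lower in LSK cells of both genotypes, by -0.78 ± 0.17 in Parp-2-/- mice (6.57 and 6.64 in LSK, 7.41 and 7.36 in MP pools; limma, adjusted p = 0.0259) and by -1.06 ± 0.17 in WT mice (6.10 and 6.38 in LSK, 7.42 and 7.19 in MP pools; adjusted p = 0.00589). Ddias was lower in Parp-2-/- LSK cells by -2.07 ± 0.34 (6.90 and 5.46 in LSK, 8.05 and 8.44 in MP pools; adjusted p = 0.00817). In WT cells the Ddias difference of -1.04 ± 0.34 did not pass (adjusted p = 0.0971). The counts of 2 of 10 in Parp-2-/- and 1 of 10 in WT cells stand beside 3.34% and 5.23% of all rows called. The median difference of the 10 genes was 0.09 and 0.04, against 0.09 over all rows in both genotypes. All LSK pools lay below the MP pools for 2 and 3 of the 10 genes in Parp-2-/- and WT cells (21.8% and 22.3% of all rows) and above them for 1 and 3 (33.6% of rows in both). Ddias lost its call in Parp-2-/- cells without unirradiated Parp-2-/- MP pool 2 (-1.87, adjusted p = 0.103). Gne lost its call there without Parp-2-/- MP pool 1, MP pool 2, LSK pool 1 or LSK pool 2 of the unirradiated arrays (adjusted p = 0.151, 0.168, 0.111 and 0.0732). In WT cells Gne lost it without unirradiated WT MP pool 1 (-0.94, adjusted p = 0.0654). Ddias in WT cells was called without either unirradiated Parp-2-/- LSK pool, while its difference stayed at -1.04 and only the estimate of the spread changed. For Prrg4 in Parp-2-/- cells the difference was 1.72 without pool 2 of that group. That value rests on pool 1, which read 7.03. Pool 2 read 5.38, close to the MP pools at 5.48 and 5.15.

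After irradiation none of the 10 differed between LSK and MP cells in limma (0 of 10 in each genotype, beside 4.07% of rows in Parp-2-/- and 2.45% in WT cells). The median difference was -0.13 in Parp-2-/- and -0.25 in WT cells, against 0.09 over all rows in both, with 2 of 10 genes above 0 in each genotype. All LSK pools lay below the MP pools for 1 gene in Parp-2-/- and 7 genes in WT cells (21.7% and 24.5% of all rows), and above them for 1 gene in each (32.5% and 34.5%). At an unadjusted p under 0.05 there was 1 in Parp-2-/- cells, Adamts6, and there were 2 in WT cells, Adamts6 and Kank3. The Ddias difference was -0.04 in Parp-2-/- mice (95% interval -0.78 to 0.70) and -0.22 in WT mice (-0.96 to 0.52). The Gne difference was -0.01 (-0.37 to 0.36) and -0.19 (-0.55 to 0.18). Prrg4, which read 0.90 and 0.89 higher in LSK cells of Parp-2-/- and WT mice before irradiation without passing (adjusted p = 0.288 and 0.238), read -0.09 and 0.07 after it. LSK minus MP kept its sign in all 4 settings for Ddias and Gne (below 0) and for Adamts6 (above 0). For Adamts6 it was 0.88 ± 0.23 in irradiated Parp-2-/- (adjusted p = 0.0546), 0.72 in irradiated WT (0.109), 0.46 in unirradiated Parp-2-/- (0.321) and 0.79 in unirradiated WT cells (0.0702). None of these passed, and the unirradiated values compare readings that were all below the array medians. Adamts6 was called in irradiated Parp-2-/- cells without either irradiated WT LSK pool (adjusted p = 0.0452 for each), and in irradiated WT cells without irradiated WT LSK pool 2 (0.95, adjusted p = 0.0483).

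**Figure D3:**
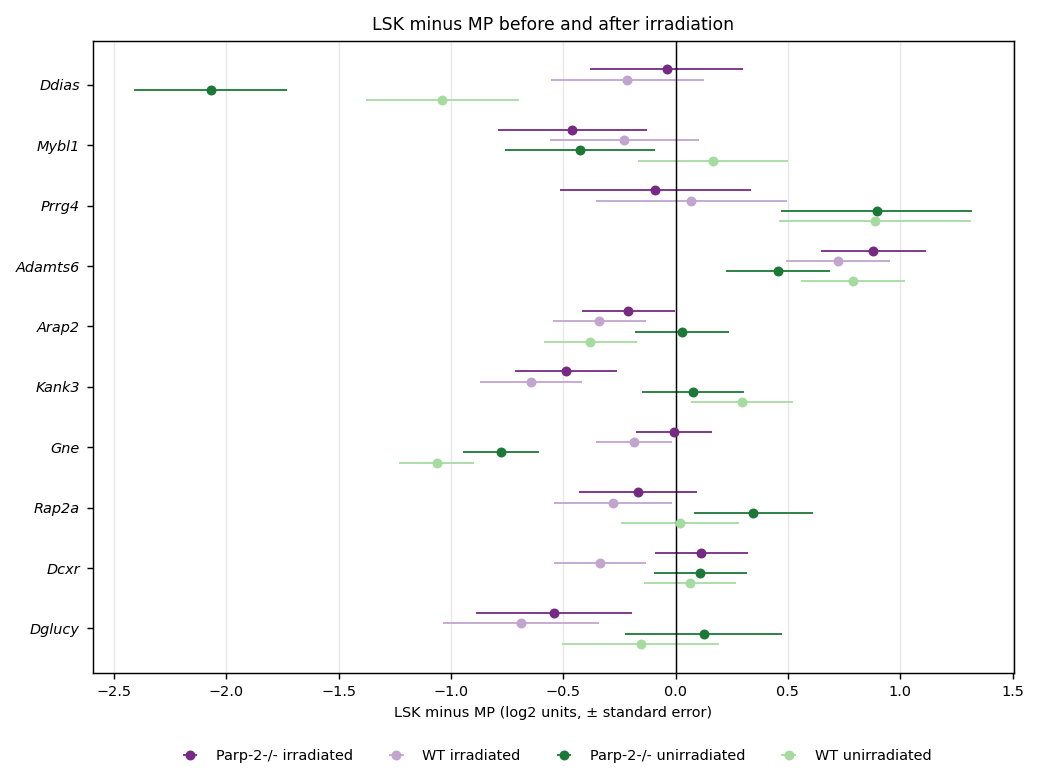
LSK minus MP level of each gene (log2 units; points are differences of 2-pool means, bars ± 1 standard error) in irradiated and unirradiated Parp-2-/- and WT cells. Unirradiated Ddias and Gne lie to the left of 0, by -2.07 to -0.78, while their irradiated values lie between -0.22 and -0.01.

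Whether the radiation change itself differed between LSK and MP cells was tested as an interaction. The choice of genes that stood higher in every group disfavours large interactions, so a low count is partly set by the choice. None of the 10 passed in either genotype (limma, beside 0% of all rows in both), and 2 in each genotype had an unadjusted p under 0.05. In Parp-2-/- cells these were Ddias (2.03 ± 0.48, 95% interval 0.98 to 3.07, adjusted p = 0.463) and Gne (0.77 ± 0.24, adjusted p = 0.681). In WT cells they were Gne (0.88 ± 0.24, adjusted p = 0.665) and Kank3 (-0.94 ± 0.32, adjusted p = 0.761). Without unirradiated Parp-2-/- LSK pool 1, which read 6.90 for Ddias where pool 2 read 5.46, the Ddias interaction in Parp-2-/- cells was 2.75. Without pool 2 instead it was below 2.03, since the remaining pool read higher. Either way the gap between these pools drops out of the spread. That arm is then a single array, assumed to vary like the other groups, as in every leave-out given here.

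The genotype comparison is the question of the series. No difference between Parp-2-/- and WT cells passed for any of the 10 genes in any of the 4 settings (limma). The shares of all rows called were 0% in unirradiated LSK, 0.00436% in unirradiated MP, 0.0174% in irradiated LSK and 0.00871% in irradiated MP cells. At an unadjusted p under 0.05 there were 2 in unirradiated LSK cells, Adamts6 (-0.57 ± 0.23, adjusted p = 0.472, between readings all below the array medians) and Gne (0.37 ± 0.17, adjusted p = 0.535), and 0 in the other settings. Averaged over the 4 settings, the differences ran from -0.29 for Adamts6 to 0.17 for Dcxr (0 of 10 called, beside 0.00871% of rows). The Adamts6 average of -0.29 ± 0.12 had a 95% interval of -0.54 to -0.04 and an adjusted p of 0.856, and its unirradiated part rests on such readings. Of the other 9, the widest interval was that of Prrg4 (-0.52 to 0.41) and the narrowest that of Gne (-0.11 to 0.25).

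The radiation changes of Parp-2-/- and WT cells were also set against each other. In LSK cells the difference of the changes was largest for Ddias, 0.78 ± 0.48 (95% interval -0.26 to 1.83, adjusted p = 0.654). In MP cells it was largest for Dcxr, -0.44 ± 0.29 (-1.07 to 0.19, adjusted p = 1). In limma 0 of 10 passed in LSK and 0 of 10 in MP cells, beside 0.00871% and 0% of rows, and 0 had an unadjusted p under 0.05. A difference of a whole log2 unit lay inside the 95% interval of several genes, Prrg4 among them (-1.35 to 1.27 in LSK cells), so a modest effect of Parp-2 on these changes was not detectable with 2 pools a group.

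**Figure D4:**
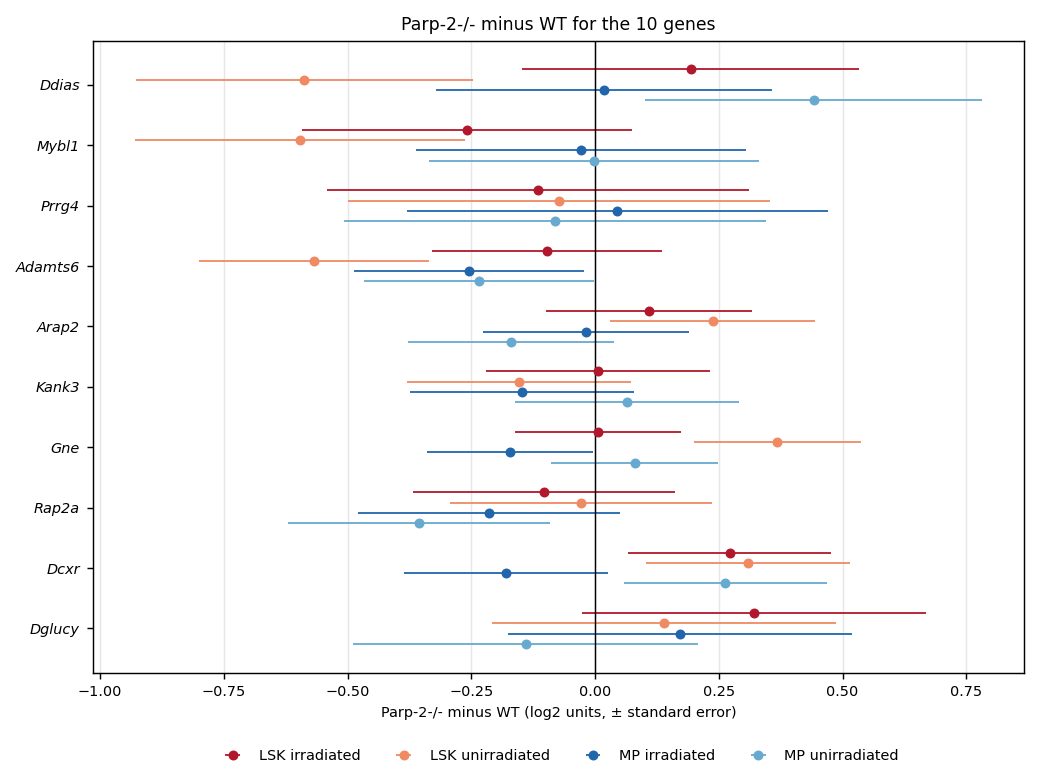
Parp-2-/- minus WT level of each gene (log2 units; points are differences of 2-pool means, bars ± 1 standard error) in irradiated and unirradiated LSK and MP cells. The 40 values lie between -0.60 and 0.44 on both sides of 0.

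Relatives of the 10 genes were also read, from a list drawn up with earlier results of these data known. The list held 40 family members and pathway partners, and 39 had a row. Of these, 1 was called higher after irradiation in Parp-2-/- LSK cells, 2 in WT LSK cells and 0 in MP cells of either genotype (limma). In any of the 4, 0 were called lower. The rows called higher were 0.727%, 1.18%, 0.505% and 0.571% of all in Parp-2-/- LSK, WT LSK, Parp-2-/- MP and WT MP cells, and those called lower were 0.74%, 0.623%, 0.0827% and 0.1%. The median change of the relatives was -0.09, 0.00, 0.05 and 0.02 in the same order, and that of all rows -0.00, -0.02, -0.01 and -0.04.

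In WT LSK cells the count was 0 without unirradiated WT LSK pool 2, 1 without unirradiated WT LSK pool 1 or irradiated WT LSK pool 2 (Slc35a1 each time), and 4 without either unirradiated Parp-2-/- LSK pool, with Arap1 and Nanp added. In WT MP cells it was 1, Rap2b, without either unirradiated Parp-2-/- LSK pool or either irradiated WT LSK pool.

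The relative that came nearest was Rap2b, the sister GTPase of Rap2a. Rap2b read 7.69 and 7.59 (irradiated) against 6.45 and 5.67 (unirradiated) in Parp-2-/- LSK cells, and 7.41 and 8.10 (irradiated) against 5.94 and 6.17 (unirradiated) in WT LSK cells. It rose by 1.58 ± 0.31 in Parp-2-/- LSK (adjusted p = 0.0254) and 1.70 ± 0.31 in WT LSK cells (adjusted p = 0.0171). In Parp-2-/- LSK cells its call was lost without irradiated pool 1, irradiated pool 2 or unirradiated pool 2 of that genotype. Another relative was then called in its place: Rap2c (0.91), Adamts9 (0.98) and Nanp (1.29), in that order. In MP cells the values were 1.02 in Parp-2-/- (adjusted p = 0.357) and 1.49 in WT mice (adjusted p = 0.0556). Rap2c, the third Rap2 gene, read 0.36, 0.11, 0.26 and 0.31 in Parp-2-/- LSK, WT LSK, Parp-2-/- MP and WT MP cells. It passed in none of them in the fit over all arrays. The Rap2 effector kinase genes Tnik, Mink1 and Map4k4 and the related Rap1a and Rap1b lay between -0.46 and 0.57.

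In the fit over all arrays no relative passed for Mybl1, Prrg4, Kank3, Adamts6 or Arap2. The Myb paralogues Myb, needed for blood progenitors, and Mybl2 lay between -0.45 and 0.52 in the 4 combinations and passed in none. Prrg1, Prrg2 and Prrg3 lay between -0.58 and 0.36, and Kank1, Kank2 and Kank4 between -0.26 and 0.21. Of 6 other ADAMTS protease genes none passed, with values from -0.58 to 0.51. Arap1 read 0.70, 0.76, 0.61 and 0.68 (adjusted p = 0.0913, 0.0581, 0.338 and 0.192 in Parp-2-/- LSK, WT LSK, Parp-2-/- MP and WT MP cells), while Arap3 and Arf6 lay between -0.23 and 0.08.

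Of the genes that follow Gne in sialic acid metabolism, Slc35a1, the Golgi CMP-sialic acid transporter, rose in WT LSK cells. It read 6.48 and 5.53 in irradiated and 4.56 and 4.13 in unirradiated WT LSK pools (1.66 ± 0.26, limma, adjusted p = 0.007). This change may be a lower bound, since both unirradiated pools were below the array median. In the other 3 combinations it read 0.39 to 0.57 and did not pass. Nans, Cmas and Npl lay between -0.85 and 0.59. Nanp, the phosphatase that completes sialic acid synthesis, read 0.88 and 0.97 in Parp-2-/- and WT LSK cells and -0.18 and -0.11 in MP cells. It passed in none of them in the fit over all arrays. Like Gne, Nanp was lower in unirradiated LSK than MP cells, by -1.30 ± 0.25 in Parp-2-/- (adjusted p = 0.0161) and -1.21 ± 0.25 in WT mice (adjusted p = 0.0193). The measured sugar and amino acid enzymes set beside Dcxr and Dglucy, 5 and 3 in number, passed in none. Pola1 and Prim1, DNA replication genes set beside Ddias, lay between 0.10 and 0.45.

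Of 30 widely known p53 targets, listed with earlier results of these data in view, 28 had a row with 1 symbol. In Parp-2-/- LSK, WT LSK, Parp-2-/- MP and WT MP cells 15, 15, 17 and 16 of them were called higher and 0 lower (limma). The shares of all rows are given above. In Parp-2-/- MP cells the count was 8 to 11 without any 1 of the 4 Parp-2-/- MP pools (8 and 10 without irradiated pool 2 and pool 1, 9 and 11 without unirradiated pool 2 and pool 1). In all, 14 were called higher in every combination, among them Mdm2, Ccng1, which encodes cyclin G1, Polk, a translesion polymerase, and Apaf1, the apoptosome scaffold. A further 10 were called in none, among them Bbc3, which encodes Puma, Sesn1 and the nucleotide excision repair genes Xpc and Ddb2. Not being called does not mean no change. Of these 10, Ppm1d changed by 0.83 to 1.31 and Btg2 by 0.62 to 1.02 over the 4 combinations, while Plk3 changed by -0.75 to -0.27. The median mean change of the 28 was 1.68, and that of the 10 lesser-known genes was 1.65. The mean changes of the 10 genes lay within the span of the p53 targets, which ran from -0.59 (Plk3) to 3.49 (Fas). Both medians were partly set by the choice of genes, so nothing is read from their likeness. Control of the 10 genes by p53 was not tested.

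**Figure D5:**
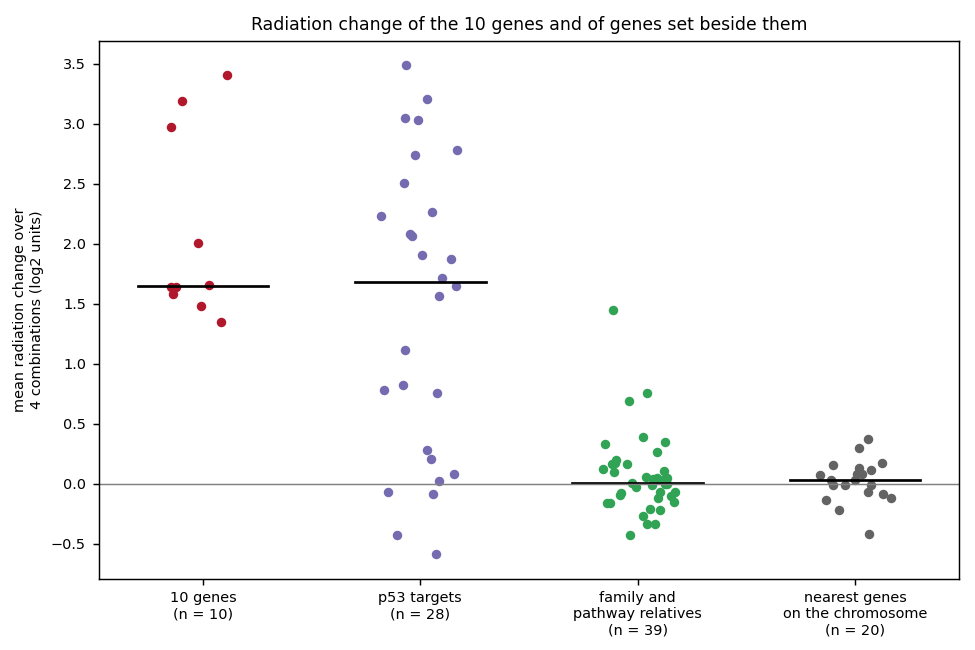
Mean radiation change over the 4 combinations of genotype and cell type (log2 units, vertical axis) for the 10 genes, 28 p53 targets, 39 family and pathway relatives and 20 nearest measured genes on the chromosome; each point is a gene and each line a median. The medians are 1.65, 1.68, 0.01 and 0.03. All lists were made with earlier results of these data known.

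The nearest protein-coding genes with a row on either side of each of the 10 genes were read as well, a choice made after the members' values were known. Of these 20 neighbours, 0 were called in any of the 4 radiation comparisons in limma, and their mean changes lay between -0.42 (Melk) and 0.37 (Rac3). In GRCm38.p6 the gap between the nearest gene edges was 336 bases for Prcp and Ddias, 116 for Rps28 and Kank3, and 577 for Rac3 and Dcxr. The gaps take no account of strand or start sites. None of these 3 neighbours passed. The mean changes of Prcp and Rps28 were 0.16 and -0.01. Without irradiated Parp-2-/- LSK pool 2, 5 neighbours were called (Qser1, Cwc27, Rps6ka5, Melk and Ccdc88c), without pool 1 of that group 3 (Rps6ka5, Melk and Ccdc88c), and without unirradiated WT LSK pool 1 Melk alone. Rps6ka5 read -0.88 without pool 2 and 1.06 without pool 1, so the pools of that group went opposite ways.

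Since the 10 genes moved together, their promoters were compared. RefSeq windows (GRCm38.p6) from 250 bases before to 50 after the start were at hand for 8 of the 10 (9 windows, with a pair for Gne), and Mybl1 and Adamts6 had none. The decamer unit of the p53 response element, matched exactly on either strand, was in 0 of the 8 genes' windows and in 8.36% of all 32851 windows. A pair of such decamers up to 13 bases apart was in 0 of 8 and in 0.073% of all. The bases CATG were in 3 of 8 (61.1% of all windows). The TATA box TATAAA was in 0 of 8 (13.6% of all windows) and the GC box GGGCGG in 3 of 8 (35.7%). The CCAAT box, CCAAT on either strand, was in 4 of 8, namely Ddias, Dcxr, Dglucy and Kank3, and in 37.4% of all. These matches are descriptions and not binding sites, and a missing match says only that the letters are not in the window.

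The CCAAT-holding windows are shown 5′ to 3′ on each gene's strand. Of the motifs searched, CCAAT was in the windows of more members than any other, though 4 of 8 is near its share of 37.4% of all windows. The first pair also holds the longest run of bases that any 2 members shared. Capitals mark CCAAT and its complement ATTGG.
Ddias (chr7:92874198-92874497, minus strand): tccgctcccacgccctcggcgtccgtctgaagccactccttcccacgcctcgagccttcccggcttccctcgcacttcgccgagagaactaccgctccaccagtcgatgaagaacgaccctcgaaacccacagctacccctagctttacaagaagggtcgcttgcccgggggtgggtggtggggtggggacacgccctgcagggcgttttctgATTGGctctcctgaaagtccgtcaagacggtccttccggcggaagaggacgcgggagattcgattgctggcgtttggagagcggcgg
Dcxr (chr11:120727235-120727534, minus strand): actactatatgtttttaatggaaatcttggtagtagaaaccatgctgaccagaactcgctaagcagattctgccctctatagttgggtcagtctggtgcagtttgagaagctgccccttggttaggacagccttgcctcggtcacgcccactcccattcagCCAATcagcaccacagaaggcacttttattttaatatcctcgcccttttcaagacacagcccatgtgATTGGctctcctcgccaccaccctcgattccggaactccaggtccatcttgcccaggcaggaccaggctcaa
Kank3 (chr17:33810273-33810572, plus strand): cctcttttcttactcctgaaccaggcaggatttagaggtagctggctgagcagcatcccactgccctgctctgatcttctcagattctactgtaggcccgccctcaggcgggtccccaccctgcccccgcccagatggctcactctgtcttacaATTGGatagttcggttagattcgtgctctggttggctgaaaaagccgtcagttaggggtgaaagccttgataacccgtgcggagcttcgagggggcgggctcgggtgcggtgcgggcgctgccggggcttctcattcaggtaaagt
Dglucy (chr12:100778807-100779106, plus strand): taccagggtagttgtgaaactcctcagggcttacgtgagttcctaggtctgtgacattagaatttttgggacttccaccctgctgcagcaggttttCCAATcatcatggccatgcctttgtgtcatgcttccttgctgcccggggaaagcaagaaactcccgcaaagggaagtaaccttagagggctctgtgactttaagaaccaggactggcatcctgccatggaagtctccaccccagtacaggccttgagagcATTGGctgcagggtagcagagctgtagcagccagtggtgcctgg
The shared run of 14 bases lies in the Ddias and Dcxr windows in the same orientation: tgATTGGctctcct. It was in 3 of all 32851 windows, those of Ddias and Dcxr among them. The run was picked as the longest shared, so nothing is read from its rarity. Its ATTGG lies at bases -37 to -33 in Ddias and -22 to -18 in Dcxr, counted from 1 at the start base. In Kank3 the box lies at -96 to -92. The GC content of the member windows ran from 49.0% (Prrg4) to 81.7% (Arap2), around a median of 52.7% over all windows.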

How the data were processed

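The deposited table held 34760 rows by 16 arrays (Affymetrix Mouse Gene 1.0 ST) of log2 intensities. Per the submitters' processing notes, RMA, limma, affy 2.10 and R 2.15 were used, without the role of each; the log2 scale was read from the deposited values, and the labels do not say which arrays were normalised together. The values were used as deposited. A total of 21640 rows carried 1 gene symbol, 1321 several and 11799 none; the 22961 rows with a symbol were tested.

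A linear model of 8 group means over 16 arrays was fitted in limma 3.58.1 under R 4.3.3 (eBayes, 8 residual and 4.35 prior degrees of freedom), with two-sided tests and Benjamini-Hochberg adjustment over all tested rows within each of 17 comparisons. Calls were made at adjusted p-values under 0.05. Only 2 arrays a group limit the precision (median standard error 0.207 between a pair of groups). A reading below its array's median was taken as not shown to be above background. The procedure was tested on simulated data. Alternatives were a pool-number block, 8 arrays alone, quantile normalisation, a filter on dim rows, trended robust variances, all rows, and leaving out each array. The alternative of averaging several rows of a gene was not needed, since all 10 genes had 1 row.

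The members, lists and tests were chosen with earlier results of these data known. The rule for names took the 10 genes in every comparison, genes of the p53 target and relatives lists, and the 5 genes outside them with the highest correlation to their mean profile. Promoter windows came from RefSeq (GRCm38.p6); no protein sequence was used.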

Additional observations from a re-analysis of the deposited data

Results flagged for a closer look

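Dcxr differed in sign between cell types in the genotype comparison after irradiation. Irradiated LSK pools read 7.99 and 7.78 in Parp-2-/- and 7.75 and 7.48 in WT mice (0.27 ± 0.21, adjusted p = 0.724), and irradiated MP pools read 7.67 and 7.87 in Parp-2-/- and 7.88 and 8.01 in WT mice (-0.18 ± 0.21, adjusted p = 1). Every Parp-2-/- pool thus lay above the WT pools in LSK cells and below them in MP cells, and the effects were 0.45 apart. With 2 pools a group such a separation can arise by chance, and its share over all rows was not counted. Dcxr was picked from all the members after their values were known, so nothing is read from the separation. The difference between these effects was not tested.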

How the results depend on the processing

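Pool numbers did not pair the samples: over 28 pairs of groups the correlation of pool deviations ran from -0.17 to 0.23, with 2 over 0.1. With pool number as a replicate block, 2 of the 10 genes were called in unirradiated WT LSK minus MP (Adamts6 added, adjusted p = 0.047) and 1 in irradiated Parp-2-/- cells (Adamts6, adjusted p = 0.037). Adamts6 was also the 1 gene called there with dim rows left out and with trended robust variances. In unirradiated Parp-2-/- LSK minus MP the members called were 1 after quantile normalisation, 1 with all rows tested and 0 with 8 arrays alone. Relatives called higher were 2 in Parp-2-/- LSK cells after quantile normalisation and 0 there with all rows or 8 arrays alone, 0 in WT LSK cells with 8 arrays alone, and 1 in WT MP cells with dim rows left out or 8 arrays alone. With 8 arrays alone, p53 targets called higher were 9 in Parp-2-/- LSK and 9 in WT LSK cells. Quantile normalisation gave 2 called neighbours. The causes were not tested, beyond the fewer arrays of the 8-array fits. Leaving out each array gave p53 targets of 12 to 15, 13 to 15, 8 to 18 and 11 to 17 (Parp-2-/- LSK, WT LSK, Parp-2-/- MP, WT MP), relatives of 1 to 1, 0 to 4, 0 to 0 and 0 to 1, and 0 to 5 neighbours. Members called in LSK minus MP were 0 to 2 in unirradiated Parp-2-/-, 0 to 2 in unirradiated WT, 0 to 1 in irradiated Parp-2-/- and 0 to 1 in irradiated WT cells, and 0 to 1 for the Parp-2-/- interaction of cell type with radiation. Genotype comparisons and genotype interactions gave 0 throughout. Median radiation changes of the 10 genes were 1.70 to 1.80, 1.57 to 1.82, 1.78 to 2.02 and 1.74 to 1.87. Of 968 radiation values under the alternatives 938 moved by less than the pool spread, 30 by more, and 0 reversed. Only quantile normalisation, or leaving out an array of the groups compared, can change such a value. Most of the 968 were thus fixed in advance, and the 938 are no measure of stability. The relative called in Parp-2-/- LSK cells was not the same gene in every leave-out. Signal over background limits Adamts6 most.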
